A study of Homo sapiens with 6 samples.

Results

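The genes followed here are the recurrently mutated driver genes of uveal melanoma, GNAQ, GNA11, BAP1, SF3B1, EIF1AX, PLCB4 and CYSLTR2, together with the tumour antigen gene PRAME. They were picked by symbol in the array annotation, and the group was chosen with earlier results of these data known. Of the 8 named genes 7 had a probe set listed under their symbol, which gave 10 probe sets among 33297 on the array and 7 of 18417 named genes. BAP1 was not analysed here, since none of the listed probe sets carried its symbol, alone or with others, and 12083 probe sets had no listing. The 6 arrays of total RNA came from 3 established human lines of choroidal uveal melanoma, Mel 290, 92.1 and Mel 270, each grown with activated T cells and alone, with 1 array per line and culture. In co-culture, T cells of healthy volunteers, activated with beads against CD3 and CD28, were held in an insert with 0.4 µm pores over the melanoma cells. All cultures, those grown alone included, stood in a serum-free medium for 64 h, and 100000 cells of Mel 290, 80000 of 92.1 and 100000 of Mel 270 had been plated. Mel 290 was confluent at the change to that medium and the other lines were not, so cell density and line cannot be told apart. Nothing in the labels gives repeat cultures of a line, so the 3 lines served as the replicates of the co-culture comparison.

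Uveal melanoma is known for a chain of signalling that starts at the cell surface. The receptor encoded by CYSLTR2 binds cysteinyl leukotrienes and passes the signal to the G proteins of the Gq class, whose alpha subunits are encoded by GNAQ and GNA11, and these switch on the phospholipase C-beta enzymes, among them the product of PLCB4. Most tumours carry an activating mutation in one or another of these genes. A later set of mutations falls in BAP1, a chromatin deubiquitinase, SF3B1, a splicing factor that reads the branch point, or EIF1AX, a factor that helps the ribosome find the start codon. PRAME is silent in most adult tissues outside the testis, dampens retinoic acid receptor signalling, recruits a cullin 2 ubiquitin ligase, and marks tumours with a higher risk of metastasis. As background from other work, 92.1 and Mel 270 carry a mutated GNAQ and Mel 290 has neither GNAQ nor GNA11 mutated. The arrays measure how much transcript is present and read no mutation.

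The label of melanoma was set against melanocyte markers. Of 13 such markers with a probe set, 6 in co-culture and 7 alone reached the filter level in Mel 290, 12 and 12 in 92.1, and 12 and 13 in Mel 270. The filter level, a log2 signal of 5.80, is the 25th percentile of the listed probe sets, and genes with a mean below it were not tested. MLANA, a melanosome protein gene, stood at 5.05 in co-culture and 4.92 alone in Mel 290, so this pigment cell marker was below the filter there. SOX10, the neural crest factor, was above it in Mel 290 (7.25 in co-culture and 6.84 alone). The summed signal of the melanocyte list was lower in co-culture in each line (log2 of 10.47 against 10.99 alone in Mel 290, 14.67 against 15.12 in 92.1, and 14.21 against 15.07 in Mel 270), and its part in the results below was not tested. Of 18 T cell markers, 8 to 9 reached the filter level in co-culture and 8 to 10 alone. Their summed signal (log2) was higher in co-culture in Mel 290, at 11.44 against 11.05 alone. In 92.1 it was 10.16 in both cultures, and in Mel 270 it was 10.29 in co-culture against 10.36 alone. The part of these markers in the results was not tested. The T cell receptor genes CD3D, CD3E and CD3G had a highest value of 5.70 in co-culture and 5.62 alone, under the filter. The 10 monocyte and macrophage markers had a higher summed signal in co-culture in each line (log2 of 11.94 against 11.42 alone in Mel 290, 10.73 against 10.60 in 92.1, and 11.12 against 10.22 in Mel 270), with 3 to 6 of them at the filter level in co-culture and 3 to 5 alone, and their part in the results was not tested either.

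The levels split the 7 genes into 3 kinds. GNAQ, GNA11, SF3B1 and EIF1AX were well above the filter on all 6 arrays in every line. PLCB4 differed between lines, and PRAME was high in Mel 270 and below the filter in Mel 290 and 92.1. CYSLTR2 was below the filter on all 6 arrays, so it was not among the 13808 tested genes, and 6 of the 7 were tested.

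**Figure D1:**
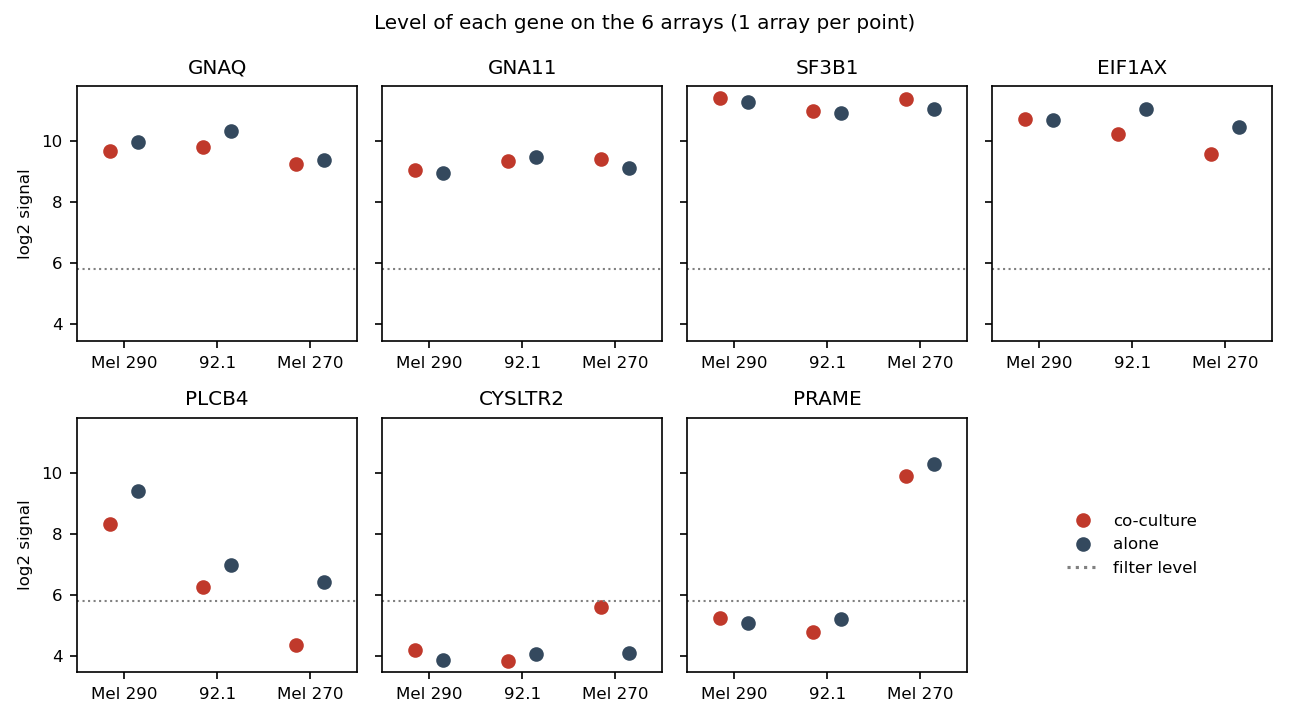
Log2 signal (vertical axis) of the 7 genes in Mel 290, 92.1 and Mel 270 (horizontal axis), with 1 point per array, red for co-culture and dark blue for growth alone; the dotted line is the filter level of 5.80. Of the PRAME points those of Mel 270 alone lie above the line, at 9.89 and 10.28, whereas all CYSLTR2 points lie below it and the PLCB4 points spread from 4.34 to 9.39.

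PRAME was shown by the arrays in 1 line only. Its signal (probe set 8074856) was 5.23 in co-culture and 5.08 alone in Mel 290, 4.79 and 5.21 in 92.1, and 9.89 and 10.28 in Mel 270. The Mel 270 values did not overlap with those of the other lines, and the values of Mel 290 and 92.1 lay below the filter level. PRAME was lower in Mel 290 than in Mel 270 by a log2 difference of -4.93 (SE 0.20, 30.5-fold, limma adjusted p = 0.00065), and lower in 92.1 than in Mel 270 by -5.09 (SE 0.20, 34.0-fold, limma adjusted p = 0.0020), with 2 arrays per line. The difference between Mel 290 and 92.1 was 0.16 with a 95% interval of -0.36 to 0.67 (limma adjusted p = 0.62), and it was 0 once values below 5.80 were raised to that level. With that floor PRAME was -4.29 apart in both contrasts against Mel 270 and remained called. Its mean over the 6 arrays, 6.75, passed the filter only through the Mel 270 values, so the filter itself admitted PRAME by its high line. Tested without a filter, the contrasts against Mel 270 had a limma adjusted p of 0.00064 for Mel 290 and 0.0018 for 92.1. These p-values take the 2 cultures of a line as its arrays, and how far a repeated culture would vary was not measured.

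No co-culture difference of PRAME passed the test. The co-culture minus alone difference was 0.15 in Mel 290, -0.41 in 92.1 and -0.39 in Mel 270, with a mean of -0.22 ± 0.32 (SD, n = 3 lines) and a 95% interval of -0.64 to 0.21 in limma (adjusted p = 0.55). In Mel 270, the line with measurable PRAME, the signal was 9.89 in co-culture against 10.28 alone, a 1.31-fold difference, and 19.9% of tested genes were at least that much lower in that line.

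The 250 bases before 2 RefSeq start sites of PRAME (GRCh38.p14) are shown because promoters rich in CG dinucleotides are, as background, those that can be switched off by DNA methylation, a mark often described for cancer-testis genes. They stand beside the same window of EIF1AX, a gene high in every line. Capitals mark CG, and each line runs 5′ to 3′ on the minus strand, at chr22:22559266-22559515 for the first PRAME start, chr22:22557633-22557882 for the second and chrX:20141839-20142088 for EIF1AX.
PRAME, first start: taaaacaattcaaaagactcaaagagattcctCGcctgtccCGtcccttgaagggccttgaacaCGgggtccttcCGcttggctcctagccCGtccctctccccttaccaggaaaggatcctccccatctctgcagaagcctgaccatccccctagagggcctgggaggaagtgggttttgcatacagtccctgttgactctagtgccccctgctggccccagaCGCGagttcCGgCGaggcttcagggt
PRAME, second start: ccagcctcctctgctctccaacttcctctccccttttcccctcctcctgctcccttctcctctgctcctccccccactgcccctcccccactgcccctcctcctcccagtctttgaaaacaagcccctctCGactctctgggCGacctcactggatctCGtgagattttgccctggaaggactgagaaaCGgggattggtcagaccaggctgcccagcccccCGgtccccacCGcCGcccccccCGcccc
EIF1AX: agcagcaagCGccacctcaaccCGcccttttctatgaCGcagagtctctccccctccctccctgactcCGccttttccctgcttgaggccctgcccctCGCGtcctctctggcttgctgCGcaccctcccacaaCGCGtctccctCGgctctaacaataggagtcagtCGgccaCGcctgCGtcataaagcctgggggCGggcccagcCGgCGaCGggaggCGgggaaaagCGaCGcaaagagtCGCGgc
The PRAME windows held 9 and 8 CG, against 22 in EIF1AX, and the third PRAME start, not printed, held 4. At least as many CG were found in 54.1% and 56.3% of all 35116 RefSeq promoter windows for the printed PRAME starts and in 28.0% for EIF1AX, so PRAME lay near the middle of all promoters. GNA11 held 37 CG, SF3B1 18 and 24 at its 2 starts, and CYSLTR2 1. Methylation was not measured in these samples. A search of both strands for the STAT site TTCNNNGAA found 1 match at the third PRAME start and 1 at the first SF3B1 start, and none in the other windows searched, those of EIF1AX, GNA11 and CYSLTR2 included. It occurs in 6.57% of all windows, and a match is a description of the letters only.

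PLCB4, which encodes a phospholipase that Gq alpha subunits activate, had the largest mean co-culture difference of the 6 tested genes. Its signal (probe set 8060897) was 8.32 in co-culture against 9.39 alone in Mel 290, 6.25 against 6.96 in 92.1, and 4.34 against 6.42 in Mel 270. Co-culture was lower in 3 of 3 lines, by -1.06, -0.71 and -2.08 in that order, although the levels of the groups overlapped because the lines differ so much. The mean difference was -1.29 ± 0.71 (SD, n = 3 lines), with a 95% interval of -2.01 to -0.56 and an unadjusted p = 0.0060 in limma, and it did not pass over all genes (adjusted p = 0.11). The Mel 270 co-culture value was below the filter, so the size of that difference is imprecise: with values raised to 5.80 the mean difference was -0.80 (adjusted p = 0.087). In bulk RNA, fewer cells with a transcript and less transcript per cell cannot be told apart.

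PLCB4 was highest in Mel 290. PLCB4 was 2.25 higher in Mel 290 than in 92.1 (SE 0.35, 4.76-fold, limma adjusted p = 0.014) and 3.47 higher in Mel 290 than in Mel 270 (SE 0.35, 11.1-fold, limma adjusted p = 0.0047), or 2.74 with low values raised, since the Mel 270 co-culture value was below the filter. Between 92.1 and Mel 270 the difference of 1.22 did not pass (limma adjusted p = 0.10) and was 0.49 with low values raised. The order was therefore Mel 290 above 92.1 and Mel 270, with the last 2 not separated by the test.

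GNAQ and GNA11, the alpha subunit genes, were above the filter on all 6 arrays. GNAQ (probe set 8161906) had 9.69 in co-culture against 9.97 alone in Mel 290, 9.80 against 10.34 in 92.1, and 9.26 against 9.37 in Mel 270. Each line was lower in co-culture, and the groups overlapped. The mean difference was -0.31 ± 0.22 (SD, n = 3 lines; 95% interval -0.68 to 0.06, limma adjusted p = 0.32). The second GNAQ probe set gave -0.30 in Mel 290, -0.45 in 92.1 and -0.11 in Mel 270, within 0.10 of the first in every line.

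GNA11 (probe set 8024557) did not share a direction across lines. Its signal was 9.04 in co-culture against 8.97 alone in Mel 290, 9.35 against 9.49 in 92.1, and 9.41 against 9.13 in Mel 270, which spans 0.52 over the 6 arrays. The mean difference was 0.07 ± 0.21 (SD, n = 3 lines; 95% interval -0.29 to 0.43, limma adjusted p = 0.85), and its sign turned to -0.03 without Mel 270. The second GNA11 probe set differed in sign from the first in Mel 290 (-0.18) and had a mean of -0.02. GNAQ and GNA11 are close paralogs, and how far their probes bind each other's transcripts was not tested.

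Between lines, neither alpha subunit passed. GNAQ was 0.76 higher in 92.1 than in Mel 270 (SE 0.18, limma adjusted p = 0.066), 0.52 higher in Mel 290 than in Mel 270 (adjusted p = 0.098) and -0.24 apart between Mel 290 and 92.1 (adjusted p = 0.37). The GNA11 differences were -0.42 for Mel 290 minus 92.1, -0.26 for Mel 290 minus Mel 270 and 0.15 for 92.1 minus Mel 270 (limma adjusted p = 0.15, 0.35 and 0.64). In order of their means, GNAQ ran 92.1 (10.07), Mel 290 (9.83), Mel 270 (9.31) and GNA11 ran 92.1 (9.42), Mel 270 (9.27), Mel 290, and no neighbours in either order were separated by the test.

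CYSLTR2, the receptor at the head of the chain, was below the filter throughout. Its signal (probe set 7969050) was 4.19 in co-culture against 3.86 alone in Mel 290, 3.83 against 4.05 in 92.1, and 5.60 against 4.09 in Mel 270. The Mel 270 co-culture array was the highest of the 6, 1.51 above the same line alone, yet still below 5.80. Tested without a filter, the mean difference was 0.54 (SE 0.34, limma adjusted p = 0.53), and no difference between lines passed.

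EIF1AX, the gene of the start codon scanning factor, was lower in co-culture in 2 lines by its main probe set. Its signal (probe set 7912852) was 10.72 in co-culture against 10.69 alone in Mel 290, 10.22 against 11.04 in 92.1, and 9.59 against 10.48 in Mel 270. The Mel 290 values lay 0.02 apart, whereas 92.1 and Mel 270 were lower in co-culture by -0.81 and -0.90, and 4.97% and 5.56% of tested genes were at least that much lower in those lines. Both probe sets gave these differences to within 0.03. They are listed for the same transcripts, so the second is no independent measurement. Whether either also reads a processed pseudogene copy of EIF1AX was not tested.

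Over the 3 lines EIF1AX differed by -0.56 ± 0.51 (SD, n = 3 lines; 95% interval -1.12 to -0.0028) with an unadjusted p = 0.049 in limma, and it did not pass over all genes (adjusted p = 0.25). Without Mel 290 the mean was -0.85 (adjusted p = 0.12). Whether Mel 290 differs in its response from the other lines could not be tested with 1 array per line and culture. Line levels did not pass either: EIF1AX was 0.67 higher in Mel 290 than in Mel 270 (limma adjusted p = 0.14), 0.59 higher in 92.1 than in Mel 270 (adjusted p = 0.24) and 0.08 apart between Mel 290 and 92.1 (adjusted p = 0.86).

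SF3B1, the gene of the branch point splicing factor, had the smallest range over the 6 arrays among the 7 (0.50). Its signal (probe set 8058024) was 11.43 in co-culture against 11.30 alone in Mel 290, 11.00 against 10.93 in 92.1, and 11.37 against 11.04 in Mel 270. Co-culture was slightly higher in 3 of 3 lines, with overlapping groups and a mean of 0.18 ± 0.14 (SD, n = 3 lines; 95% interval -0.15 to 0.51, limma adjusted p = 0.53). The line means of SF3B1 ran from 11.37 in Mel 290 over 11.21 in Mel 270 to 10.97 in 92.1, and no contrast passed (limma adjusted p of 0.13 to 0.54).

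**Figure D2:**
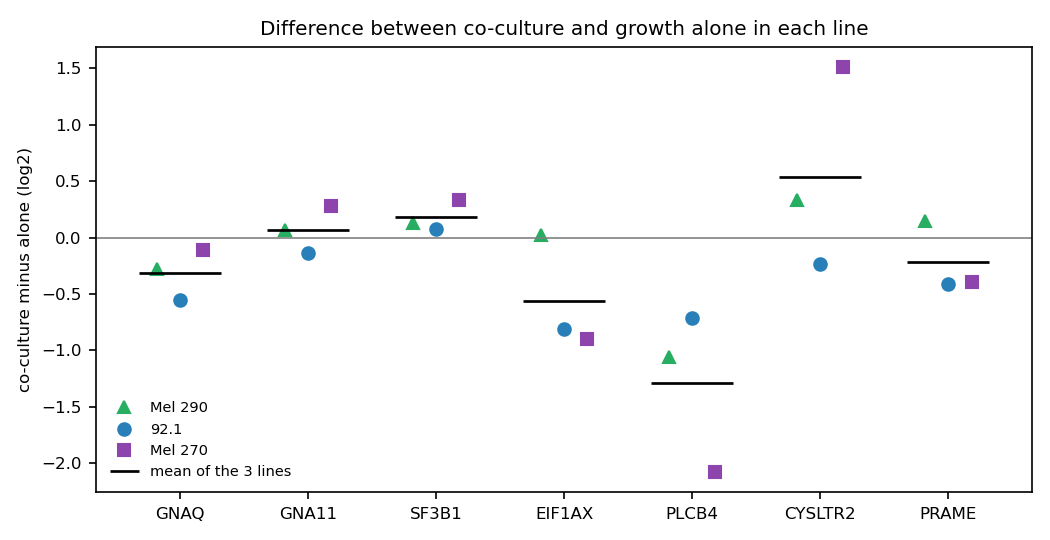
Co-culture minus alone in log2 units (vertical axis) for the 7 genes (horizontal axis), with green triangles for Mel 290, blue circles for 92.1, purple squares for Mel 270 and a black bar for the mean of the 3 lines. PLCB4 and GNAQ lie below 0 in all lines, SF3B1 lies above it in all lines, and the EIF1AX triangle sits at 0.02 while its other points sit at -0.81 and -0.90.

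Counted together, 0 of 6 tested genes of this group passed the co-culture test, where 0.449% of all 13808 genes did in limma. At an unadjusted p under 0.05, PLCB4 and EIF1AX were lower and none was higher, against 13.0% lower and 7.02% higher among all tested genes. PLCB4 and GNAQ were lower in 3 of 3 lines (25.5% of all tested genes) and SF3B1 was higher in 3 of 3 (16.2%). The median of the 6 mean differences was -0.26, beside -0.041 over all tested genes.

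Within single lines, a difference of at least 2-fold was seen for PLCB4 in Mel 290 and in Mel 270, where 2.3% and 4.52% of tested genes were that much lower (the Mel 270 co-culture value, 4.34, was below the filter level), and for no tested member in 92.1 (2.71% lower and 3.63% higher). CYSLTR2 in Mel 270, below the filter, was the only one at least 2-fold higher, beside 5.29% of tested genes in Mel 270 and 2.07% in Mel 290. Between lines, PLCB4 was the 1 of 6 called for Mel 290 minus 92.1 (23.5% of all tested genes), PLCB4 and PRAME were the 2 called for Mel 290 minus Mel 270 (22.8%), and PRAME was the 1 called for 92.1 minus Mel 270 (8.05%). With 6 genes, these counts show nothing particular to the group.

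The genes with profiles nearest to PRAME and PLCB4, the 2 tested members spanning at least 2 log2 units over the 6 arrays, were found by the root mean square difference of profiles centred on each gene's own mean. Nearest to PRAME were RELN, a secreted matrix glycoprotein gene (0.20), HTATIP2 (0.30) and APOD, an apolipoprotein gene (0.32). RELN had 5.46 in co-culture and 5.23 alone in Mel 290, 5.29 and 5.11 in 92.1, and 10.19 and 10.26 in Mel 270, so like PRAME it was above the filter in Mel 270 alone. Nearest to PLCB4 were CRY1, a circadian repressor gene (0.41), CCNY, a cyclin gene (0.53), and SLC20A1, a phosphate transporter gene (0.54). CRY1 had 9.24 in co-culture against 9.63 alone in Mel 290, 7.34 against 7.91 in 92.1, and 5.85 against 6.91 in Mel 270, lower in co-culture in each line as PLCB4 was. The 6 arrays share 3 lines, so these profiles are not 6 independent points. RELN, CRY1 and the others were picked for their likeness over these same arrays, so the shared pattern follows from the choice and is no separate finding.

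**Figure D3:**
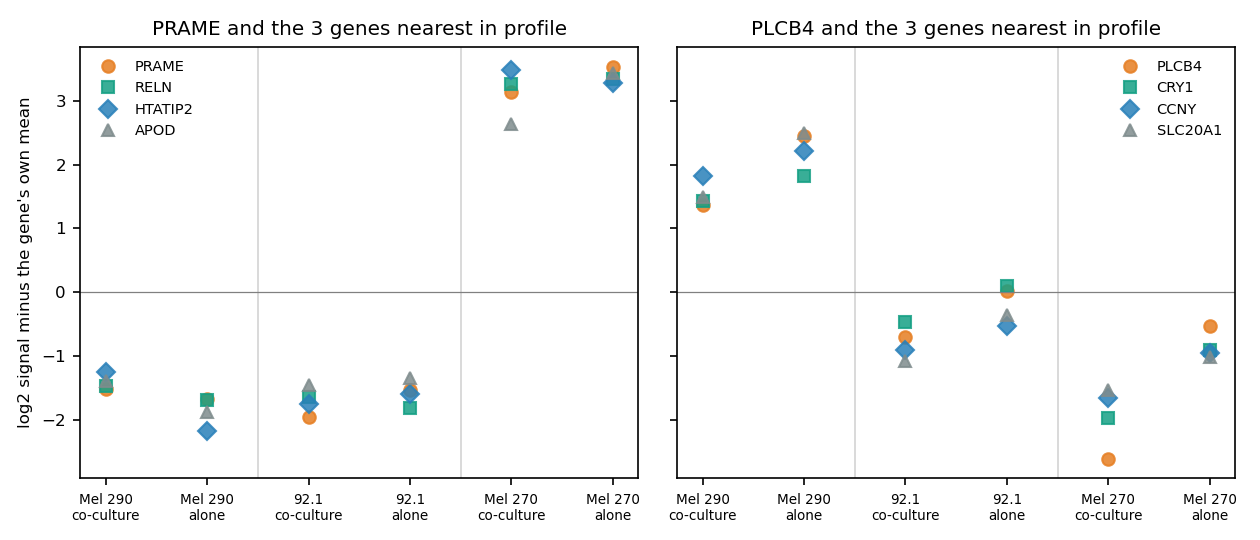
Log2 signal minus the gene's own mean (vertical axis) on the 6 arrays (horizontal axis), for PRAME with RELN, HTATIP2 and APOD (left) and for PLCB4 with CRY1, CCNY and SLC20A1 (right). The left panel is high on both Mel 270 arrays only; in the right panel Mel 290 is highest and the Mel 270 co-culture lowest.

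The partners of these genes were followed in 8 lists, of which 100 of 136 genes were tested. None of the 100 passed in co-culture (limma), where 0.449% of all tested genes did, and that share stands beside each list's count below. Before adjustment 4 were higher and 22 lower at a p under 0.05, where 7.02% of all tested genes were higher and 13.0% lower. Lower in 3 of 3 lines were 35 and higher in 3 of 3 were 10, beside 25.5% and 16.2% of all tested genes, and the median difference was -0.061, beside -0.041 over all tested genes. Between lines, 24, 23 and 2 of the 100 were called for Mel 290 minus 92.1, Mel 290 minus Mel 270 and 92.1 minus Mel 270 (limma). Of all tested genes 23.5%, 22.8% and 8.05% were called in that order, and the line calls named below stand beside these shares. With genes chosen as these were, the counts are a description.

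Gq and phospholipase C-beta signalling genes had 0 of 16 past the test and a median of 0.0022, with 0 higher and 2 lower at an unadjusted p under 0.05, beside 7.02% and 13.0% of all tested genes. RASGRP3, which couples diacylglycerol to RAS and is known as a link from mutant GNAQ to the MAP kinase pathway, had the widest gap between lines. RASGRP3 had 5.32 in co-culture against 5.56 alone in Mel 290, 10.55 against 11.33 in 92.1, and 8.48 against 11.59 in Mel 270. It was thus below the filter in Mel 290 and high in the other lines. RASGRP3 was lower in Mel 290 than in 92.1 by -5.50 (limma adjusted p = 0.0084) and than in Mel 270 by -4.59 (limma adjusted p = 0.013). With the Mel 290 values below the filter, the size of these gaps is imprecise. In co-culture RASGRP3 differed by -0.24, -0.77 and -3.11 in Mel 290, 92.1 and Mel 270, with a mean of -1.37 ± 1.52 (limma adjusted p = 0.27). PRKCA, a protein kinase C gene downstream of phospholipase C, was -0.98 ± 0.43 apart, lower in 3 of 3 lines (limma unadjusted p = 0.0039, adjusted p = 0.095). ITPR3, which encodes a calcium release channel opened by inositol trisphosphate, was 2.87 higher in Mel 290 than in Mel 270 (limma adjusted p = 0.030), and in co-culture it differed by -0.55 in Mel 290, 0.66 in 92.1 and 2.11 in Mel 270. The diacylglycerol kinase gene DGKA was 2.82 higher in Mel 290 than in Mel 270 (limma adjusted p = 0.010), where its co-culture value of 5.37 was below the filter. ITPR2, another such channel gene, had a co-culture difference of 0.75 ± 0.83 (limma adjusted p = 0.29).

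The YAP and TEAD list, the transcriptional arm that mutant Gq proteins are known to drive, had 0 of 12 past the co-culture test and a median of 0.11, with 1 higher and 2 lower at an unadjusted p under 0.05 (7.02% and 13.0% of all tested genes). The matricellular gene CCN1, a classical YAP target, had 12.03 in co-culture against 12.22 alone in Mel 290, 7.66 against 6.34 in 92.1, and 6.16 against 6.26 in Mel 270. CCN1 was 5.13 higher in Mel 290 than in 92.1 and 5.91 higher than in Mel 270 (limma adjusted p = 0.0028 and 0.0018). ANKRD1, another YAP target, was 4.01 and 3.94 higher in Mel 290 than in 92.1 and Mel 270 (limma adjusted p = 0.0028 and 0.0025). It was below the filter in 92.1 and Mel 270, so it was tested only because of its Mel 290 values. CCN2, of the same list, was 1.85 and 1.08 higher in Mel 290 than in 92.1 and Mel 270 and did not pass (limma adjusted p = 0.055 and 0.19). Mel 290, where CCN1, ANKRD1 and the mean of CCN2 were highest, was the line that was confluent when the medium was changed. Density and line cannot be told apart here, and a part of density in these levels was not tested. WWTR1, which encodes the YAP paralog TAZ, was 2.55 higher in Mel 290 than in 92.1 (limma adjusted p = 0.0099) and had a co-culture difference of 1.05 ± 0.72 (adjusted p = 0.14). ANKRD1 and CCN2 had co-culture differences of -0.75 ± 0.62 and -0.64 ± 1.08 (limma adjusted p = 0.21 and 0.46), and for CCN2 the values were -1.88 in Mel 290, 0.12 in 92.1 and -0.17 in Mel 270.

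Among BAP1 partners and Polycomb genes, 0 of 16 passed in co-culture, with a median of 0.022 and with 1 higher and 2 lower at an unadjusted p under 0.05 (7.02% and 13.0% of all tested genes). BRCA1 and BARD1, whose products form a ubiquitin ligase, were the lowest, at -1.06 ± 0.75 and -0.79 ± 0.24 (limma adjusted p = 0.15 and 0.088), each lower in 3 of 3 lines. BRCA1 was also lower in Mel 290 than in 92.1 by -1.91 (limma adjusted p = 0.022), and its Mel 290 co-culture value of 5.66 was below the filter. The BAP1 partner gene MBD5 was at 0.45 ± 0.34 (limma adjusted p = 0.24), and FOXK1, another partner gene, at -0.04 ± 0.53 (adjusted p = 0.96).

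In the SF3b and U2 snRNP list 0 of 17 passed in co-culture and the median was -0.17, with 1 higher and 4 lower at an unadjusted p under 0.05 (7.02% and 13.0% of all tested genes) and 7 lower in 3 of 3 lines (25.5%). SNRPA1, which encodes the U2 A′ protein, stood against the list at 0.57 ± 0.22 (limma adjusted p = 0.13), higher in 3 of 3 lines. SF3A3 and SF3B3, which encode other U2 subunits, were at -0.50 ± 0.21 and -0.44 ± 0.22 (limma adjusted p = 0.15 and 0.19), and SF3B2 at -0.18 ± 0.21. SNRPA1 was also 1.53 higher in Mel 290 than in 92.1 and 0.82 higher than in Mel 270 (limma adjusted p = 0.0066 and 0.032).

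The list of initiation factors that work beside EIF1AX on the small ribosomal subunit had 0 of 20 past the co-culture test. It also holds EIF4E and EIF4G1, genes of the cap-binding complex, which is not part of the 43S complex. Of the 20, 14 were lower in 3 of 3 lines and 0 higher in 3 of 3, beside 25.5% and 16.2% of all tested genes. At an unadjusted p under 0.05, 10 were lower and 0 higher, beside 13.0% and 7.02% of all tested genes. The list's median was -0.34, beside -0.041 over all tested genes, with -0.27 in Mel 290, -0.29 in 92.1 and -0.31 in Mel 270. Many of the 20 encode subunits of the same complex, eIF3, and the list was chosen with earlier results known, so these counts are a description. The eIF3 subunit gene EIF3L had 10.41 in co-culture against 11.32 alone in Mel 290, 11.33 against 11.98 in 92.1, and 11.38 against 12.01 in Mel 270. Its mean of -0.73 ± 0.15 was the lowest of the list (limma unadjusted p = 0.0024, adjusted p = 0.086). EIF3K and EIF3B, also eIF3 subunit genes, were at -0.55 ± 0.01 and -0.53 ± 0.31 (limma adjusted p = 0.11 and 0.18). Mel 290, whose EIF1AX values lay 0.02 apart, had a median for this list close to those of the other lines. EIF5, which encodes the factor that triggers GTP hydrolysis at the start codon, was at 0.30 ± 0.28 (limma adjusted p = 0.38) and lower in Mel 290 than in 92.1 by -1.14 (adjusted p = 0.016), and EIF3G was lower in 92.1 than in Mel 270 by -0.86 (adjusted p = 0.042).

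The cysteinyl leukotriene pathway was thinly measured, with a probe set for 8 of 11 genes, 5 genes tested and 0 past the co-culture test (median 0.049). At an unadjusted p under 0.05 none was higher or lower, beside 7.02% and 13.0% of all tested genes. MGST2, which can make leukotriene C4, was at -0.54 ± 0.57 (limma adjusted p = 0.30) and was lower in Mel 290 than in 92.1 and Mel 270 by -1.71 and -2.10 (adjusted p = 0.017 and 0.011). The exporter gene ABCC1 was at 0.20 ± 0.74, ALOX5, which encodes 5-lipoxygenase, at 0.12 ± 0.19, and GGT5 at 0.05 ± 0.60 (limma adjusted p of 0.70 to 0.95).

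Of the PRAME ligase and retinoic acid receptor genes 0 of 12 passed in co-culture (median -0.11), with 1 higher and 2 lower at an unadjusted p under 0.05, beside 7.02% and 13.0% of all tested genes. RARB, which encodes a retinoic acid receptor and is itself switched on by retinoic acid, had 6.86 in co-culture against 5.96 alone in Mel 290, 8.98 against 7.62 in 92.1, and 8.71 against 6.36 in Mel 270. Higher in 3 of 3 lines, RARB had a mean of 1.54 ± 0.74 (limma unadjusted p = 0.0032, adjusted p = 0.090). RXRG, a retinoid X receptor gene, was above the filter in Mel 270 alone, at 6.72 in co-culture against 9.95 alone in that line. CUL2, the scaffold of the ligase that PRAME joins, was 2.39 higher in Mel 290 than in 92.1 and 2.45 higher than in Mel 270 (limma adjusted p = 0.0034 and 0.0030), with a co-culture difference of 0.32 ± 0.32. CRABP2, a retinoic acid carrier gene, was at -0.45 ± 0.09 in co-culture (limma adjusted p = 0.14). It was 1.06 and 1.05 higher in Mel 290 than in 92.1 and Mel 270 (limma adjusted p = 0.011 and 0.011). Its signal was 5.35 in co-culture and 5.71 alone in 92.1, and 5.27 and 5.81 in Mel 270. CRABP2 was therefore tested only because of its Mel 290 values, and the size of these gaps is imprecise. Of 20 other cancer-testis antigen genes, 9 had a probe set with 1 gene symbol, and those without one were not measured here. Only MAGEA10 and CTAG2 were tested. Their co-culture differences were 0.01 ± 0.11 and 0.00 ± 0.17 (limma adjusted p = 0.98 and 0.99). Neither was higher or lower at an unadjusted p under 0.05, beside 7.02% and 13.0% of all tested genes.

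**Figure D4:**
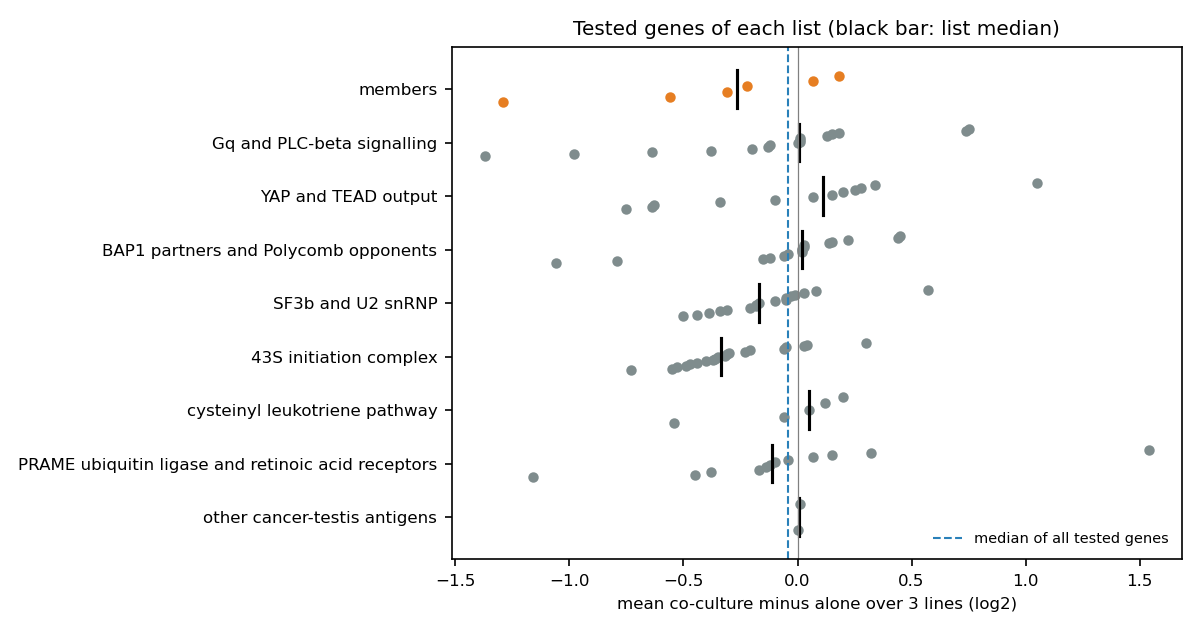
Mean co-culture minus alone over the 3 lines in log2 units (horizontal axis) for the tested members (orange) and the tested genes of 8 lists (grey), with 1 point per gene, a black bar for each median and a dashed line for the median of all tested genes. The bar of the 43S initiation complex, at -0.34, lies left of the other lists' bars, and RARB is the rightmost point at 1.54.

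Line means at least 2 log2 units apart were found for 9 of the 100 list genes and 2 of the 6 tested members, beside 7.98% of all tested genes. The 9 were RASGRP3, ITPR3, DGKA, WWTR1, ANKRD1, CCN1, MGST2, CUL2 and RXRG.

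**Figure D5:**
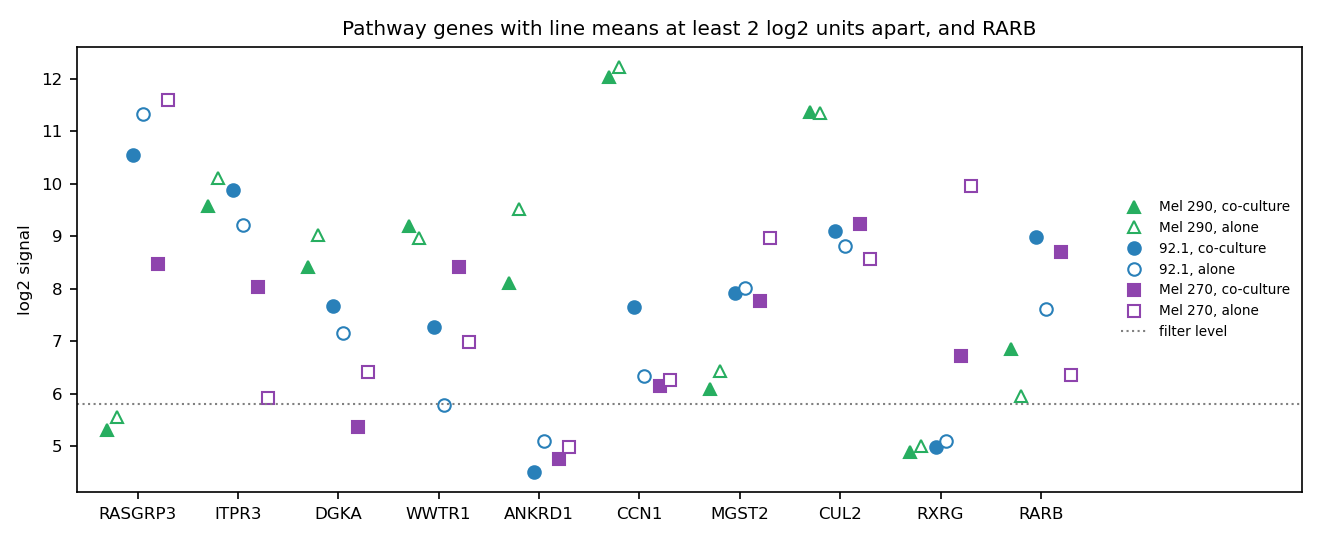
Log2 signal (vertical axis) of the 9 list genes with line means at least 2 log2 units apart and of RARB (horizontal axis), with green triangles for Mel 290, blue circles for 92.1 and purple squares for Mel 270, filled for co-culture and open for growth alone. RASGRP3 is below the dotted filter level in Mel 290 and above it in 92.1 and Mel 270, while CCN1, ANKRD1 and CUL2 are highest in Mel 290.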

How the data were processed

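Total RNA of 6 cultures was hybridised to 6 Affymetrix arrays. Per the submitters' processing notes, Affymetrix Expression Console 1.2.0.20 made the deposited log2 values. How background, summarization and normalization were done is not given in the sources used here. Array medians ran from 6.63 to 6.69 and values from 1.49 to 13.9, and no further scaling was applied. Precision is limited by the number of arrays.

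Of 33297 probe sets the array annotation listed 21214, of which 19460 had 1 gene symbol and 1754 several. Only those with 1 symbol were named. Current symbols came from a RefSeq gene table of GRCh38.p14, used for names (19429 matched, and 31 kept the annotation's symbol). The probe set with the highest mean stood for a gene, and genes with a mean at or above 5.80, the 25th percentile of the listed probe sets, were tested (13808 of 18417). Co-culture was compared with growth alone, and lines with each other, in 1 additive model of line and culture with limma 3.58.1 in R 4.3.3 (lmFit, eBayes; 2 residual and 3.10 prior degrees of freedom), with Benjamini-Hochberg adjustment across the 13808 genes and a call at an adjusted p under 0.05. The code was tested on simulated data. Each line's arrays pair by the cell line itself, and deviations from the group means correlated at 0.741 to 0.832 within a line across genes. With 3 pairs, an exact permutation test (two-sided) cannot go below p = 0.25. Promoter sequences are RefSeq's.

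The members and lists were chosen with earlier results of these data known. The text names all members, list genes that were called in co-culture (none), up to 3 tested genes per list with the largest co-culture difference and up to 3 with the widest gap between line means, and the 3 nearest profiles of members spanning at least 2 log2 units. Alternatives were no line block, other filters, a floor, cyclic loess, an intensity trend, averaged probe sets and leaving out each line.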

Additional observations from a re-analysis of the deposited data

How the results depend on the processing

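No tested driver gene or PRAME was called in co-culture under any of the 10 alternatives, and no list gene was called under any of them either. GNA11 changed sign without Mel 270 (-0.03). Of 178 single differences of members under an alternative, the other 177 stayed on the same side of the threshold. They also kept their direction, or came to 0 for PRAME between Mel 290 and 92.1 with low values raised. Dropping the line block, changing the filter or adding the intensity trend cannot alter an estimated difference in this balanced design. Nor can leaving out a line alter the difference between the other lines, so the count of kept directions says little about stability. Without the cell line block the members called remained 0 and the count of all genes called was 18, against 62 with it, with cyclic loess it was 41, and without 1 line it was 49 to 85. Counts for 92.1 minus Mel 270 were 728 of all genes with the filter at the median and 560 without Mel 290, against 1112. With the filter at the median the members called were 0 for Mel 290 minus 92.1, 0 for Mel 290 minus Mel 270 and 0 for 92.1 minus Mel 270, since PRAME and PLCB4 were then not tested. Leaving out 1 line moved the co-culture mean to between -1.57 and -0.89 for PLCB4, -0.85 and -0.40 for EIF1AX, -0.41 and -0.19 for GNAQ, -0.40 and -0.12 for PRAME and 0.10 and 0.23 for SF3B1. With low values raised, the PRAME co-culture mean was -0.13, and cyclic loess gave 0.28 for SF3B1 and 0.13 for GNA11. Signals below 5.80, such as those of CYSLTR2 and of PRAME in Mel 290 and 92.1, have imprecise differences.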

Other observations

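CUL2 and CCNY, which the text names for PRAME's ligase and for the profile of PLCB4, lie close together on chromosome 10 in the RefSeq gene order, with CREM between them. The genes around them, and the ends of the stretch, were chosen after values were seen. Of the 6 tested genes from PARD3 to FZD8, 4 passed as higher in Mel 290 than in both other lines, CUL2 and CCNY included. Of all 13808 tested genes, 23.5% were called in either direction against 92.1 and 22.8% against Mel 270. Those called higher in Mel 290 were 1319 and 1449 in these contrasts, and the share higher in both is not given here. CUL2 was named for its gap between lines and CCNY for its likeness to PLCB4, so the count follows from that choice and is a description only. PARD3, a cell polarity gene, was 2.19 higher in Mel 290 than in 92.1 and 2.16 higher than in Mel 270 (limma adjusted p = 0.0028 and 0.0025). CCNY was 2.74 and 3.31 higher (limma adjusted p = 0.0019 and 0.00095), and FZD8, a WNT receptor gene, was 4.47 and 4.61 higher (limma adjusted p = 0.00071 and 0.00049), next to the CUL2 values of 2.39 and 2.45. CREM differed by -0.10 and 0.29 (limma adjusted p = 0.70 and 0.30), and GJD4, between CCNY and FZD8, by 0.18 and 0.19 (limma adjusted p = 0.51 and 0.52). Copy number was not measured in these samples.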
